A study of Homo sapiens with 8 samples.

Results

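MYC and the genes that build ribosomes were followed in Karpas299 cells given the ligand of CD30, an agonistic antibody to CD30, or both. The group held 41 listed genes: MYC itself, factors that transcribe, modify and assemble ribosomal RNA, the polyamine enzymes SRM and ODC1, and the tRNA methyltransferase subunit TRMT6. A gene was tested when at least 1 of its annotated probes had a detection p under 0.01 on 2 or more of the 8 arrays, and its brightest such probe stood for it. That left 36 of the 41 genes among 10183 features tested. WDR43 and GNL3 had no annotated probe. NPM1, POLR1A and UTP20 had probes, but these were detected on 0 arrays. Of the 36 genes, 35 were detected on all 8 arrays and POLR1B on 5, so POLR1B is the gene whose entry could depend on some groups. The same holds for the dimmer probes of POLR1B and UBTF, each detected on 4 arrays. Karpas299 carries an NPM1-ALK fusion, and the ALK probe was detected on all 8 arrays, while the single NPM1 probe was not detected. Which NPM1 transcript that probe targets was not checked, so its reading says nothing about the level of NPM1.

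Karpas299 is an established human cell line from an anaplastic large cell lymphoma, a T cell tumour with CD30 on its surface. After 16 h of culture, flasks were left untreated or received, for 8 h more, CD153-Fc at 10 µg/ml, the monoclonal antibody T104 at 10 µg/ml, or 10 µg/ml of each. CD153-Fc is the natural CD30 ligand fused to an antibody Fc part, and no flask was labelled as having a control Fc or control antibody, so binding of CD30 and added protein as such cannot be told apart. Each of the 4 groups had 2 Illumina HumanHT-12 v3 arrays, described by the submitters as biological duplicates, and p-values measure the spread between these.

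MYC is a transcription factor that pairs with MAX on the E-box sequence CACGTG and drives cell growth. Many of its best known targets act in the nucleolus, where RNA polymerase I copies the ribosomal RNA genes, small nucleolar RNA particles guide the chemical marking of the transcript, and assembly factors fold and cut it into the small and large subunits. Making ribosomes takes much of the energy of a growing lymphoma cell, and the polyamines made through ODC1 and SRM are needed for the same growth.

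The E-box was looked up in the RefSeq promoters of assembly GRCh38.p14, each running from 250 bases before to 50 bases after a gene's start. CACGTG reads the same on both strands. Some genes have more than 1 promoter in the table, and a gene was counted when any of them held the motif. It was found in 18 of the 34 listed genes whose promoter was in the table used (52.9%) and in 15 of the 29 of these that were tested (51.7%). The share was 8.77% of all 27305 genes with a promoter in the table and 13.5% of the 7078 of these that were tested. A match describes these letters and is no evidence of MYC binding. The printed promoters belong to genes on which the results turn, SRM, TRMT6 and DDX51, and to ODC1, a classical MYC target; capitals mark the E-box. ODC1 has a second promoter in the table, with no E-box, which is not printed.
SRM (chr1:11059969-11060268, minus strand, E-box 199 bases before the start): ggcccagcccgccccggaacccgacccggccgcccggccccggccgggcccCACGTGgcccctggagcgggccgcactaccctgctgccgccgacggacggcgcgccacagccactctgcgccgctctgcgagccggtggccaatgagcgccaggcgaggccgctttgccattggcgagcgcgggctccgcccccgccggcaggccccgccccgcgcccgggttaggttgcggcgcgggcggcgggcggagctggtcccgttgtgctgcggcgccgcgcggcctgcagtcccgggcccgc
TRMT6 (chr20:5950484-5950783, minus strand, E-box 4 bases after the start): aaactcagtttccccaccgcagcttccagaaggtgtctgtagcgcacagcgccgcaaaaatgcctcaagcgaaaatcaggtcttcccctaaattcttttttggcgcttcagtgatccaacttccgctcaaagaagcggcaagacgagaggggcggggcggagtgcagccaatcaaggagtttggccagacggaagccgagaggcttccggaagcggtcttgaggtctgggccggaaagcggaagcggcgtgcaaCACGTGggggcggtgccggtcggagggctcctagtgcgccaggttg
ODC1 (chr2:10447963-10448262, minus strand, E-boxes 29 bases before and 5 bases after the start): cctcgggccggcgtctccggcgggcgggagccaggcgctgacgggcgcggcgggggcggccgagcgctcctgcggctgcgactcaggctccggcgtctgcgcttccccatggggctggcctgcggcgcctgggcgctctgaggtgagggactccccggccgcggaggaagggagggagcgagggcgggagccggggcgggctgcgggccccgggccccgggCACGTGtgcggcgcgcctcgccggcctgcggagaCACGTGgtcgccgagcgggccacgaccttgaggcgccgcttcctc
DDX51 (chr12:132144270-132144569, minus strand, no E-box in this window): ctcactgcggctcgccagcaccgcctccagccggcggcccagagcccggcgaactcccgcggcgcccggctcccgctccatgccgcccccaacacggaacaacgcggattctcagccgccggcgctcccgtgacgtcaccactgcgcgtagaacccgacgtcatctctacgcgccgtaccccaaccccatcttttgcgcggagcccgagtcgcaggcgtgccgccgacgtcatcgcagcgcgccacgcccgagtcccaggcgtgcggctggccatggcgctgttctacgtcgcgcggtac

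Arrays had 10713 to 12967 of 48797 probes detected and a mean intensity of 722 to 850. Across features, r between duplicates was 0.977 in untreated cells and 0.992 or more in each treated group. Untreated replicate 1 stood apart, with r from 0.959 to 0.973 against the 6 treated arrays. Among the 36 genes the untreated duplicates differed by more than 0.3 log2 in 15, against 4 for the CD153-Fc pair, 1 for T104 and 4 for the combination. Over all features 47.7% of untreated duplicates differed by that much. Every comparison with untreated cells rests on these controls, so values without 1 of them are given beside the calls. Leaving out an untreated array leaves the other alone in its group, and it is then taken to vary as the other groups do. The untreated pair, which differed most, then adds nothing to the spread, and calls come more easily among all features. A call kept or gained that way is no support for a change. Leaving out a treated array lowered the calls among all features in every comparison that had any. A call lost that way is no evidence against a change. Of 11 markers of Karpas299 and the T lineage, 6 were detected on all 8 arrays (ALK, CD3D, CD4, GZMB, IL2RA and PRF1) and 3 on none. The other 2 were TNFRSF8, which encodes CD30 itself, and CD5, each detected on 2 arrays at most. The 4 B cell markers with a probe and the 4 epithelial and fibroblast markers were detected on 0 arrays. Of 5 myeloid markers, 2 (CSF1R and CD68) were detected on all 8 arrays and 3 on none, and the part of other cells in the results was not tested.

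Few of the 36 tested genes passed the test against untreated cells, and those that did had fallen. With CD153-Fc, DDX51 and TRMT6 fell. With T104, DDX51, RRP1B and SRM fell. With both agents no gene passed. A call needed an adjusted p under 0.05 by limma, with Benjamini-Hochberg adjustment over the 10183 features. Among all features, CD153-Fc called 1.37% (0.275% lower), T104 10.5% (5.41% lower) and both agents 6.67%, so the 2 of 36 genes called with CD153-Fc were a larger share than among all features. The 3 with T104, all lower, were a smaller share than all calls and a larger share than the lower calls, and the 0 with both were a smaller share. In bulk RNA, less transcript per cell and fewer cells that hold it cannot be told apart.

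The median change of the 36 genes was -0.12 log2 with CD153-Fc and -0.10 with T104 or with both. The medians over all features were -0.0010, -0.02 and -0.02. Single arrays moved the members' median. With CD153-Fc it ran from -0.14 without CD153-Fc replicate 2 to -0.08 without untreated replicate 2, where 25 changes were below 0. With both agents it was -0.04 without untreated replicate 2, where 22 changes were below 0, and -0.06 without replicate 2 of the combination. With T104 it was -0.06 without T104 replicate 2. With all arrays, 29, 24 and 27 of the 36 changes were below 0 with CD153-Fc, T104 and both, against 50.1%, 52.3% and 52.3% of all features. The 3 comparisons share the untreated arrays, so these values are not separate evidence of direction. Both treated arrays lay below both untreated arrays for 16 genes with CD153-Fc (44.4%, against 21.3% of all features), 16 with T104 (44.4%, against 27.4%) and 12 with both (33.3%, against 24.7%). Both lay above for 2, 2 and 3 genes, where 19.7%, 24.1% and 22.5% of all features did. Of 79 other ribosome assembly factors tested, both lay below for 12.7%, 20.3% and 25.3%, and above for 13, 15 and 6 genes. The 36 genes were chosen with earlier results of these data known. The 95% interval of the change lay within a 2-fold difference either way for 33, 32 and 32 of the 36 genes (91.7%, 88.9% and 88.9%), near the 89.7%, 82.9% and 84.9% of all features. At an unadjusted p under 0.05 there were 6, 8 and 10 genes (16.7%, 22.2% and 27.8%), where all features had 15%, 25.7% and 22.6%.

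**Figure D1:**
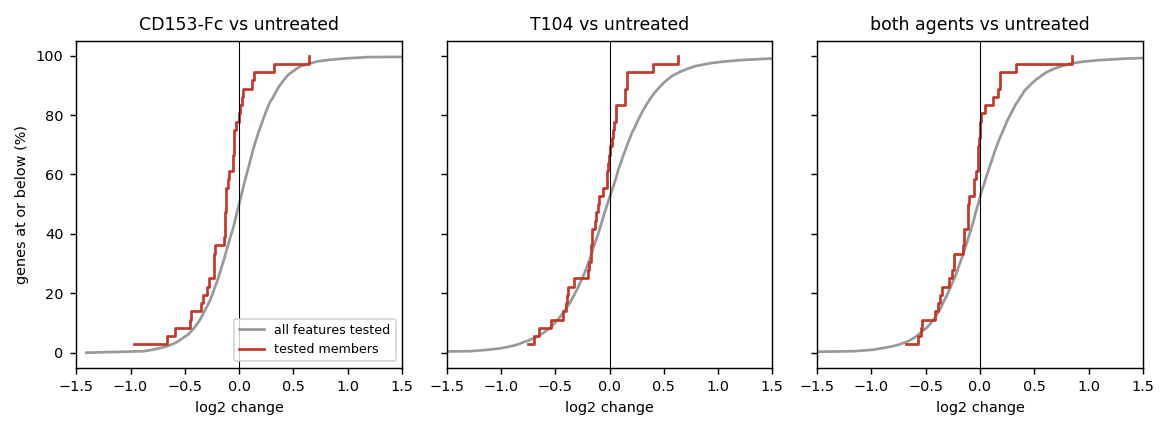
Cumulative share of genes (y axis, %) at or below a given log2 change (x axis) for the 36 tested genes (red steps) and all 10183 features (grey line), with 1 panel per treatment against untreated cells. The red line lies left of the grey one around the middle, with medians of -0.12, -0.10 and -0.10, and the lines come close at the lower end. Leaving out 1 array moved the median to -0.06 with T104 and to -0.04 with both.

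**Figure D2:**
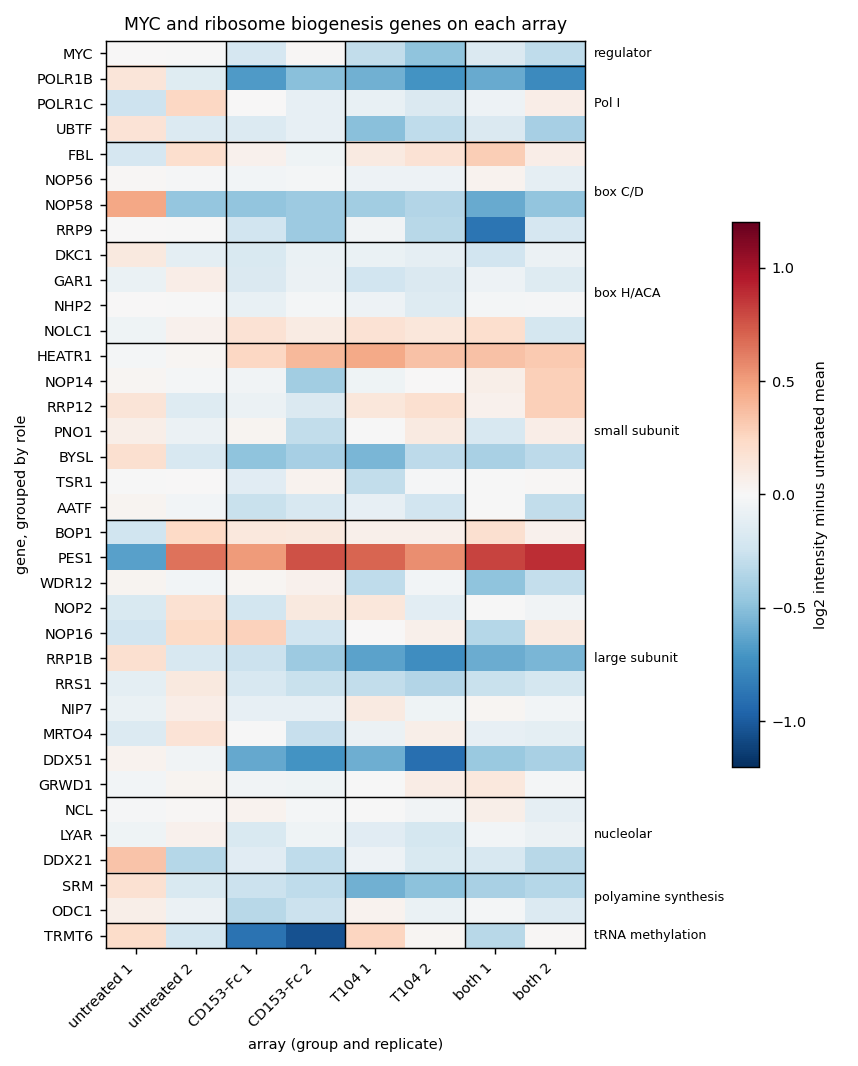
Log2 intensity of each tested gene (rows, grouped by role) on each of the 8 arrays (columns, 2 per group), minus the gene's untreated mean; blue is lower and red higher. DDX51 and RRP1B are blue on all 6 treated arrays, TRMT6 is darkest on the CD153-Fc arrays, and PES1 and NOP58 differ most between the untreated duplicates.

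MYC was measured by a brighter and a dimmer probe. The brighter probe read 12.32 and 12.31 log2 intensity in untreated cells, 12.12 and 12.33 under CD153-Fc, 12.02 and 11.83 under T104, and 12.14 and 12.01 under both agents. Both arrays with T104 alone and both with the combination lay below the untreated pair, while the CD153-Fc arrays overlapped it. Its change was -0.09 ± 0.14 log2 (SE, n = 2 arrays per group) with CD153-Fc (adjusted p = 0.787), -0.39 ± 0.14 with T104 (adjusted p = 0.108) and -0.24 ± 0.14 with both (adjusted p = 0.339), so it was not called. Without untreated replicate 2 the T104 change stayed at -0.39. Without untreated replicate 1 it was not called.

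The dimmer MYC probe read 11.33 and 10.52 in untreated cells, 10.24 and 9.94 under CD153-Fc, 9.44 and 9.93 under T104, and 10.20 and 10.39 under both. All 6 treated arrays lay below both untreated arrays. Tested on its own among all 12543 kept probes, a test added after the data were seen, it fell with T104 by 1.24 ± 0.25 on the log2 scale (adjusted p = 0.00659), where 9.86% of all probes were called. The probe was not called with CD153-Fc (-0.84 ± 0.25, adjusted p = 0.129) or with both (-0.63 ± 0.25, adjusted p = 0.16). The T104 value was -0.83 without untreated replicate 1 and -1.64 without untreated replicate 2. Without T104 replicate 1 it lost its call (-0.99, adjusted p = 0.121). The probes of MYC therefore had the same sign with T104 and differed in size, by -0.39 against -1.24.

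RNA polymerase I transcription was represented by POLR1B and POLR1C, subunits of the enzyme, and UBTF, which opens ribosomal DNA and recruits it. None of the 3 was called against untreated cells. POLR1B read 8.06 and 7.77 in untreated cells, 7.24 and 7.42 under CD153-Fc, 7.34 and 7.20 under T104, and 7.31 and 7.15 under both. All 6 treated arrays lay below both untreated arrays, and detection was lost on 1 of 2 T104 arrays and on both arrays of the combination. Its change was -0.59 ± 0.21 log2 with CD153-Fc (adjusted p = 0.22) and -0.65 ± 0.21 with T104 (adjusted p = 0.0722). With both agents it was not well above background, which gives a level at least 1.39-fold lower than in untreated cells (adjusted p = 0.0754). The other POLR1B probe was detected on all 4 arrays without T104 and on 0 of the 4 with it. With T104 alone it was at least 1.31-fold lower than in untreated cells. It was kept through the arrays where it is high, so its call in the average effect of T104 (the mean of the effects of T104 without and with CD153-Fc, where 7.21% of all probes were called) is no support for a change.

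UBTF had a change of -0.40 ± 0.20 log2 with T104 (adjusted p = 0.225) on its brighter probe. Its dimmer probe read 7.91 and 7.24 in untreated cells and 6.67 and 6.75 with T104, where it was not detected. That is at least 1.27-fold lower. Under both agents this probe read 7.27 and 7.44 and was not detected, while 7.07 counted as detected under CD153-Fc. It too was kept only through arrays without T104, so its call in the test of each probe is no support for a change. POLR1C, which RNA polymerase III also uses, had changes between -0.13 and 0.01 log2 across the 3 treatments. Of 15 other RNA polymerase I genes tested, among them its initiation factors, 0 were called with CD153-Fc, T104 or both, and their changes with T104 ran from -0.34 to 0.33.

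The box C/D particle, which guides ribose methylation, has the methyltransferase FBL and the scaffold proteins NOP56 and NOP58, and RRP9 joins it on the U3 RNA. None of these 4 genes was called. NOP58 read 12.88 and 11.95 in untreated cells, 11.94 and 11.98 under CD153-Fc, 12.00 and 12.06 under T104, and 11.81 and 11.94 under both. Untreated replicate 1 stood above all other arrays, and untreated replicate 2 lay among the treated ones. The NOP58 change with T104 was -0.38 ± 0.23 log2 with all arrays, 0.08 without untreated replicate 1 and -0.85 without untreated replicate 2. RRP9 read 9.26 and 9.25 in untreated cells, 9.02 and 8.82 under CD153-Fc, 9.21 and 8.93 under T104, and 8.38 and 9.05 under both. All its treated arrays lay below the untreated pair, with -0.54 ± 0.22 log2 in the combination (adjusted p = 0.167). FBL and NOP56 had changes between -0.06 and 0.18 across the 3 treatments.

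The box H/ACA particle, which turns uridine into pseudouridine, was measured through the enzyme DKC1, its partners GAR1 and NHP2, and NOLC1, a chaperone of both kinds of particle. None of these genes was called by its brightest probe. GAR1 read 13.20 and 13.35 in untreated cells, 13.10 and 13.21 under CD153-Fc, 13.04 and 13.10 under T104, and 13.22 and 13.12 under both. Its change with T104 was -0.20 ± 0.13 log2 (adjusted p = 0.341), the largest of the 4 genes in that comparison. A dimmer GAR1 probe went the other way, with 8.68 and 8.83 in untreated cells and 9.56 and 9.48 with T104. This probe rose by 0.77 ± 0.16 log2 (adjusted p = 0.00937), while a further GAR1 probe had 0.31 ± 0.21 (adjusted p = 0.376), so the probes of GAR1 disagreed in sign. The rise lost its call without T104 replicate 1 (adjusted p = 0.111), without T104 replicate 2 (adjusted p = 0.0832) and with median scaling (adjusted p = 0.0649).

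Small subunit assembly was covered by 7 tested genes, and none was called. HEATR1, which acts in ribosomal RNA transcription and early processing, read 12.04 and 12.08 in untreated cells, 12.31 and 12.44 under CD153-Fc, 12.51 and 12.41 under T104, and 12.41 and 12.37 under both. All 6 treated arrays lay above both untreated arrays, with a change of 0.40 ± 0.13 log2 with T104 (adjusted p = 0.0758). Without untreated replicate 2 that change was 0.42.

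BYSL, an assembly factor of the pre-small subunit, read 12.09 and 11.71 in untreated cells, 11.42 and 11.51 under CD153-Fc, 11.36 and 11.58 under T104, and 11.51 and 11.59 under both. All its treated arrays lay below the untreated pair. Its changes were -0.44 ± 0.16 log2 with CD153-Fc (adjusted p = 0.234), -0.43 ± 0.16 with T104 (adjusted p = 0.115) and -0.35 ± 0.16 with both (adjusted p = 0.22). Without untreated replicate 1 they were -0.25, -0.24 and -0.16. NOP14, RRP12, PNO1, TSR1 and AATF, further small subunit factors, had changes between -0.23 and 0.18.

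Of the 11 large subunit genes tested, 1 fell with CD153-Fc, 2 fell with T104 and 0 were called with both. DDX51, a DEAD-box RNA helicase needed in mouse cells to finish the end of the large ribosomal RNA, read 13.06 and 12.98 in untreated cells, 12.40 and 12.30 under CD153-Fc, 12.43 and 12.11 under T104, and 12.57 and 12.63 under both. All 6 treated arrays lay below both untreated ones, and the combination lay above either agent alone. DDX51 fell 1.59-fold with CD153-Fc (-0.66 ± 0.14 log2, adjusted p = 0.0393) and 1.68-fold with T104 (-0.75 ± 0.14, adjusted p = 0.00515). With both agents the change was -0.42 ± 0.14 and was not called (adjusted p = 0.107).

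The DDX51 fall with T104 was -0.71 without untreated replicate 1 and -0.79 without untreated replicate 2, and lost its call only without T104 replicate 2. The fall with CD153-Fc was -0.63 without untreated replicate 1. It kept its call without either untreated array, where calls come more easily, and lost it without any 1 of the 6 treated arrays. A dimmer DDX51 probe did not follow. It read 8.58 and 8.78 in untreated cells, 8.37 and 8.47 under CD153-Fc, 8.61 and 8.64 under T104, and 8.69 and 8.42 under both, so only its CD153-Fc arrays lay below the untreated pair. Its changes of -0.26 ± 0.18, -0.05 ± 0.18 and -0.12 ± 0.18 log2 were not called, and with the mean of both probes DDX51 was not called in any of these comparisons.

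RRP1B, a nucleolar protein of the RRP1 family, read 10.89 and 10.50 in untreated cells, 10.43 and 10.26 under CD153-Fc, 10.05 and 9.95 under T104, and 10.10 and 10.14 under both. The 4 arrays with T104 lay below the 4 without it, with no overlap. RRP1B fell 1.62-fold with T104 (-0.69 ± 0.17 log2, adjusted p = 0.0199), and its change with both was -0.57 ± 0.17 (adjusted p = 0.0645). It was the only one of the 36 genes called in the average effect of T104 (-0.46 ± 0.12, adjusted p = 0.034), where 7.69% of all features were called. Without untreated replicate 1 the T104 fall was -0.50, and it lost its call without either T104 array. The average effect was -0.36 without untreated replicate 1 and lost its call without any 1 of the 6 treated arrays.

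PES1, BOP1 and WDR12 form a complex that matures the large subunit RNA, and none of them was called. PES1 read 7.55 and 8.86 in untreated cells, 8.72 and 8.97 under CD153-Fc, 8.90 and 8.77 under T104, and 9.02 and 9.09 under both. Untreated replicate 1 alone was low. The PES1 change with both was 0.85 ± 0.31 log2 (adjusted p = 0.131) with all arrays and 0.19 without untreated replicate 1. WDR12 read 12.00 and 11.93 in untreated cells and 11.48 and 11.68 with both, a change of -0.39 ± 0.15 (adjusted p = 0.15). BOP1 had changes between 0.06 and 0.12. The other large subunit factors tested were NOP2, NOP16, RRS1, NIP7, MRTO4 and GRWD1, of which RRS1 had the largest change with T104 (-0.32 ± 0.14, adjusted p = 0.176).

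Among 79 other ribosome assembly factors tested from a further list, 0 were called with either agent alone and 1 with both, and their median changes were 0.04, 0.0015 and -0.03 log2. The called gene was BRIX1, a large subunit factor, which read 13.39 and 13.25 in untreated cells and 12.80 and 12.82 with both. It fell by 0.51 ± 0.12 on the log2 scale (adjusted p = 0.0283). The call was kept without either untreated array, where calls come more easily, and lost without any 1 of the 6 treated arrays. The other BRIX1 probe was not called (-0.40 ± 0.14, adjusted p = 0.128 among all probes).

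Other nucleolar proteins were NCL, which chaperones ribosomal RNA, LYAR, and DDX21, a helicase that joins RNA polymerase I and II transcription. None was called by its brightest probe. DDX21 read 13.60 and 12.92 in untreated cells, 13.12 and 12.95 under CD153-Fc, 13.19 and 13.07 under T104, and 13.06 and 12.93 under both. Again untreated replicate 1 was above all others, and the change with both turned from -0.26 to 0.08 log2 without it. The bright NCL probe had changes of 0.01, -0.02 and -0.02 ± 0.11. Its dimmer probe read 10.74 and 9.90 in untreated cells and 9.68 and 9.08 with T104, a fall of 0.94 ± 0.28 on the log2 scale (adjusted p = 0.0493). That call was lost without any 1 array other than untreated replicate 2.

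**Figure D3:**
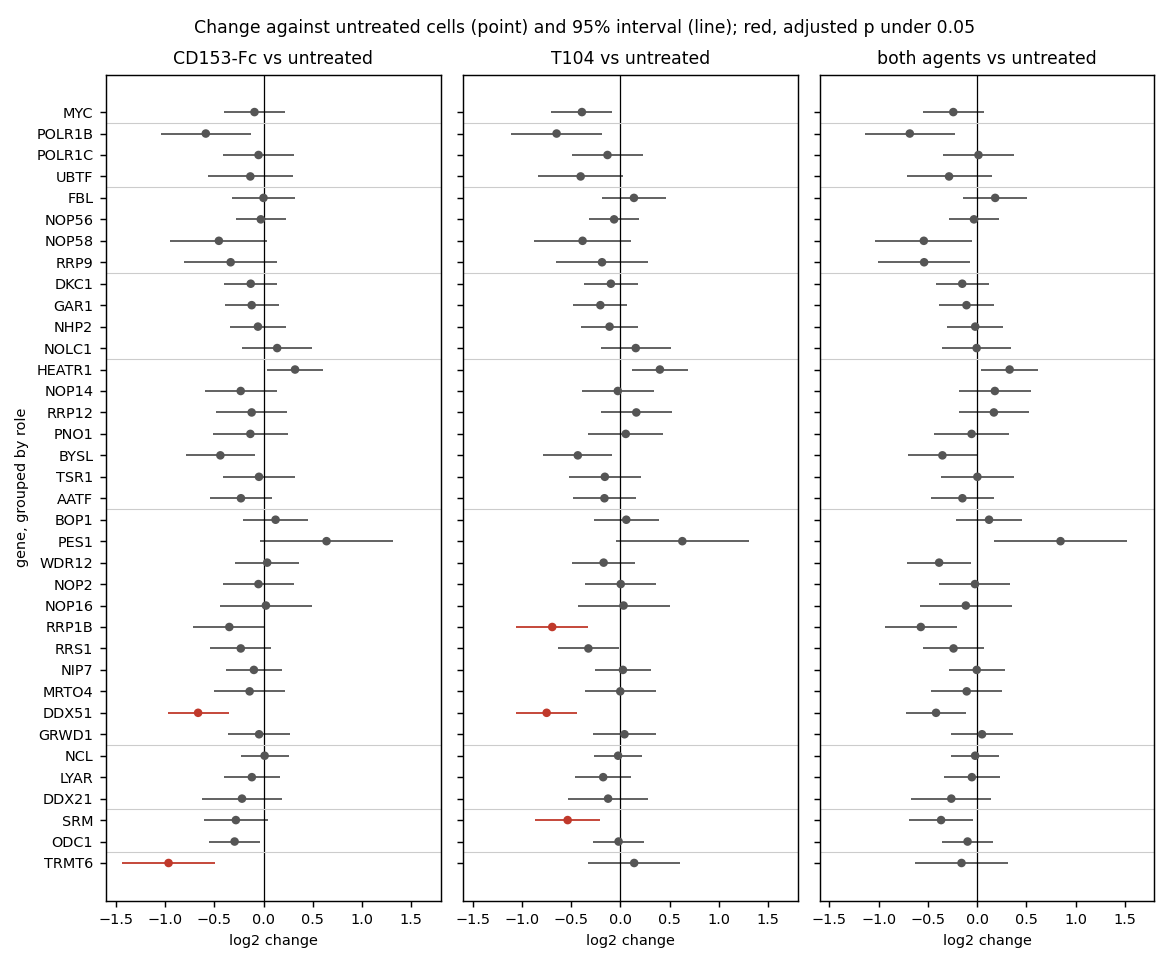
Log2 change (points) with its 95% interval (lines) for each tested gene against untreated cells, grouped by role, with 1 panel per treatment; red marks an adjusted p under 0.05. DDX51 and TRMT6 are red with CD153-Fc, DDX51, RRP1B and SRM with T104, and none with both.

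In polyamine synthesis, SRM makes spermidine from putrescine, which ODC1 supplies. SRM read 12.49 and 12.12 in untreated cells, 12.05 and 12.00 under CD153-Fc, 11.73 and 11.81 under T104, and 11.91 and 11.96 under both. All 6 treated arrays lay below the untreated ones, lowest with T104. SRM fell 1.45-fold with T104 (-0.54 ± 0.15 log2, adjusted p = 0.0408), while CD153-Fc gave -0.28 ± 0.15 (adjusted p = 0.403) and both gave -0.37 ± 0.15 (adjusted p = 0.179). The T104 fall was -0.35 without untreated replicate 1 (adjusted p = 0.107), and it kept its call only where untreated replicate 2 was the array left out. ODC1 read 14.20 and 14.05 in untreated cells, 13.80 and 13.87 under CD153-Fc, 14.17 and 14.05 under T104, and 14.10 and 13.96 under both. Its lowest arrays were those with CD153-Fc alone (-0.29 ± 0.12, adjusted p = 0.281), and with T104 its change was -0.02 ± 0.12.

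Of 10 other polyamine genes tested, 2 rose with T104 and with both, and 0 were called with CD153-Fc. Both encode enzymes that break polyamines down. SAT1, which acetylates spermidine and spermine, read 10.67 and 10.84 in untreated cells, 11.36 and 11.20 under CD153-Fc, 11.47 and 11.48 under T104, and 11.29 and 11.35 under both. It rose by 0.72 ± 0.15 log2 with T104 (adjusted p = 0.00681) and by 0.56 ± 0.15 with both (adjusted p = 0.0365), and its change with CD153-Fc was 0.53 ± 0.15 (adjusted p = 0.105). Without untreated replicate 1 the SAT1 rise with T104 was 0.64, and its call was lost only without 1 of the T104 arrays, with adjusted p up to 0.0896. The call with both was lost without any 1 of the 6 treated arrays. PAOX, which oxidises acetylated polyamines, rose by 0.79 ± 0.21 with T104 (adjusted p = 0.0328) and 0.83 ± 0.21 with both (adjusted p = 0.0354), called only without untreated replicate 2 when 1 array was left out.

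TRMT6 forms, with TRMT61A, the enzyme that methylates adenosine in tRNA, and it was the only listed gene called between the ligand and the antibody. It read 8.45 and 8.02 in untreated cells, 7.35 and 7.19 under CD153-Fc, 8.49 and 8.26 under T104, and 7.90 and 8.25 under both. The CD153-Fc pair lay below all other arrays. TRMT6 fell 1.95-fold with CD153-Fc against untreated cells (-0.96 ± 0.22 log2, adjusted p = 0.0488), and its change with T104 was 0.14 ± 0.22 (adjusted p = 0.726). Set directly against CD153-Fc, T104 gave a level 2.15-fold higher (1.11 ± 0.22, adjusted p = 0.0392). In that comparison 0.609% of all features were called. The fall with CD153-Fc was -0.75 without untreated replicate 1 (adjusted p = 0.0881), and it kept its call only without untreated replicate 2. The difference between T104 and CD153-Fc lost its call without any 1 of the 6 treated arrays. It was called without either untreated array, where calls come more easily. The untreated arrays enter this comparison only through the spread shared by all groups. Of 14 other tRNA modification genes, 0 were called with CD153-Fc and 1 with T104, TRMT10C, a part of the mitochondrial tRNA processing enzyme. TRMT10C fell by 0.95 ± 0.28 on the log2 scale (adjusted p = 0.0471), and by 0.38 without untreated replicate 1, where it was not called.

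**Figure D4:**
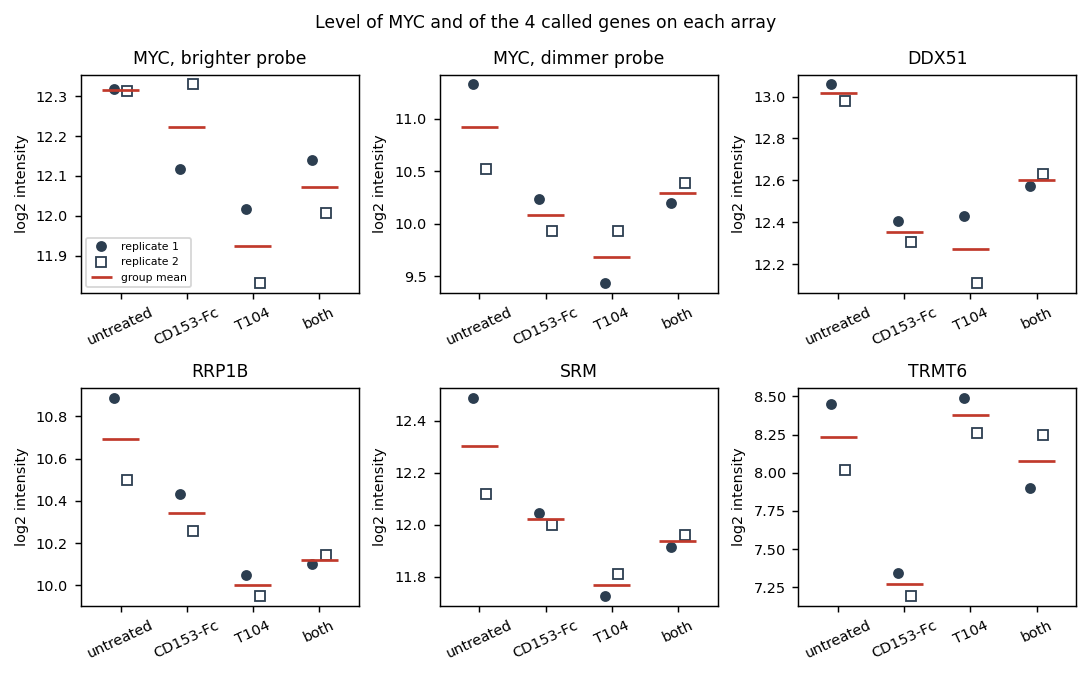
Log2 intensity (y axis, which does not start at 0) on each array for both MYC probes and for DDX51, RRP1B, SRM and TRMT6, by treatment (x axis); filled circles are replicate 1, open squares replicate 2 and red bars group means. The untreated duplicates of the dimmer MYC probe lie at 11.33 and 10.52, those of DDX51 at 13.06 and 12.98, and the CD153-Fc pair of TRMT6 is below all other arrays.

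The remaining comparisons between treated groups held few calls. With both agents against CD153-Fc alone 0 of the 36 genes were called (0.187% of all features), and 3 had an unadjusted p under 0.05 (8.33%, against 8.03% of all features). Against T104 alone there were 0 calls (0% of all features) and 1 such gene (2.78%, against 4.1%). In the average effect of CD153-Fc there were 0 calls (0.216% of all features) and 3 such genes (8.33%, against 6.04%). The interaction asked whether T104 acted alike without and with the ligand, as the change with both minus the sum of the changes with each. DDX51 was the only one of the 36 genes called there, at 1.00 ± 0.20 log2 (adjusted p = 0.0314), where 1.34% of all features were called. The DDX51 change with T104 was -0.75 in cells without CD153-Fc and 0.25 ± 0.14 in cells with it. The DDX51 interaction was 0.96 without untreated replicate 1. It kept its call without either untreated array, where calls come more easily, and lost it without any 1 of the 6 treated arrays. The interaction was above 0 for 28 of the 36 genes and for 5166 of the 10183 features, with medians of 0.14 and 0.0065 log2. It was below 0 for 8 of the 36 genes with all arrays and for 13 without untreated replicate 2. The untreated level enters the interaction with a plus sign and the changes against untreated cells with a minus sign. These values are therefore not separate evidence of direction.

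The MYC network list held the partners and regulators of MYC, of which 14 were tested. With CD153-Fc 0 were called, with T104 2 rose and 2 fell, and with both agents 2 rose and 1 fell. SKP2, a ubiquitin ligase subunit that acts on MYC and on cell cycle inhibitors, read 12.16 and 11.97 in untreated cells, 11.72 and 11.68 under CD153-Fc, 11.26 and 11.18 under T104, and 11.27 and 11.36 under both. The 4 arrays with T104 were the lowest. SKP2 fell by 0.84 ± 0.14 on the log2 scale with T104 (adjusted p = 0.00235) and by 0.75 ± 0.14 with both (adjusted p = 0.00698). Its other probe fell too, by 0.71 ± 0.16 with T104 (adjusted p = 0.0134). The T104 fall was -0.75 without untreated replicate 1, and its call was lost only without T104 replicate 2 (adjusted p = 0.0519). The call with both was lost without either array of that group. Its average effect of T104 (-0.62 ± 0.10, adjusted p = 0.00209) was called with each of the 8 arrays left out in turn.

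MXD1, which competes with MYC for MAX, read 7.17 and 7.27 in untreated cells, 7.38 and 7.17 under CD153-Fc, 7.87 and 8.09 under T104, and 7.92 and 8.09 under both. All 4 arrays with T104 lay above the 4 without. MXD1 rose by 0.76 ± 0.20 log2 with T104 (adjusted p = 0.0315), by 0.78 ± 0.20 with both (adjusted p = 0.0374) and by 0.74 ± 0.14 in the average effect of T104 (adjusted p = 0.00654). The average effect lost its call only without T104 replicate 2 (adjusted p = 0.0556), while the T104 rise against untreated cells was called only without untreated replicate 2. ZBTB17, a zinc finger partner through which MYC can repress genes, read 8.16 and 8.61 in untreated cells and 9.29 and 9.43 with T104. It rose by 0.98 ± 0.20 (adjusted p = 0.00708), by 0.75 without untreated replicate 1, and lost its call without either T104 array, with adjusted p up to 0.104. With both agents it rose by 0.72 ± 0.20 (adjusted p = 0.0477), a call kept only without untreated replicate 2. MNT, another MAX partner, fell by 0.68 ± 0.19 with T104 (adjusted p = 0.0354) and lost its call without either CD153-Fc or either T104 array.

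MYC targets outside the nucleolus, such as enzymes of purine synthesis and mitochondrial chaperones, made up a further list. Of 28 tested, 0 were called with CD153-Fc, 2 fell with T104 and 0 were called with both, and the median changes were -0.03, -0.02 and -0.06 log2. PPAT, which starts purine synthesis, read 11.25 and 11.26 in untreated cells and 10.55 and 10.81 with T104. It fell by 0.57 ± 0.16 on the log2 scale (adjusted p = 0.0367). The call was kept without either untreated array, where calls come more easily, and lost without any 1 of the 6 treated arrays. TFAP4, a transcription factor, read 8.38 and 7.56 in untreated cells and 7.17 and 6.97 with T104, where 1 of 2 arrays detected it. It fell by 0.90 ± 0.26 (adjusted p = 0.0475), and by 0.49 without untreated replicate 1, where it was not called. Its signal with T104 was near background, so the size of the TFAP4 fall is uncertain.

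How many of the 36 genes were called depended on which untreated array was used. Without untreated replicate 2, 11 genes were called in each of the 3 comparisons with untreated cells. Without untreated replicate 1 the counts were 1, 3 and 0. The 1 was DDX51, and the 3 were DDX51, RRP1B and RRS1. Among all features, the shares called without untreated replicate 2 were 25.8% with CD153-Fc, 33.6% with T104 and 32.8% for the combination. Without replicate 1 they were 2.63%, 13.5% and 7.94%. With 1 of the 6 treated arrays left out, fewer features were called in each of these comparisons. A call of a listed gene lost there is no evidence against a change.

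**Figure D5:**
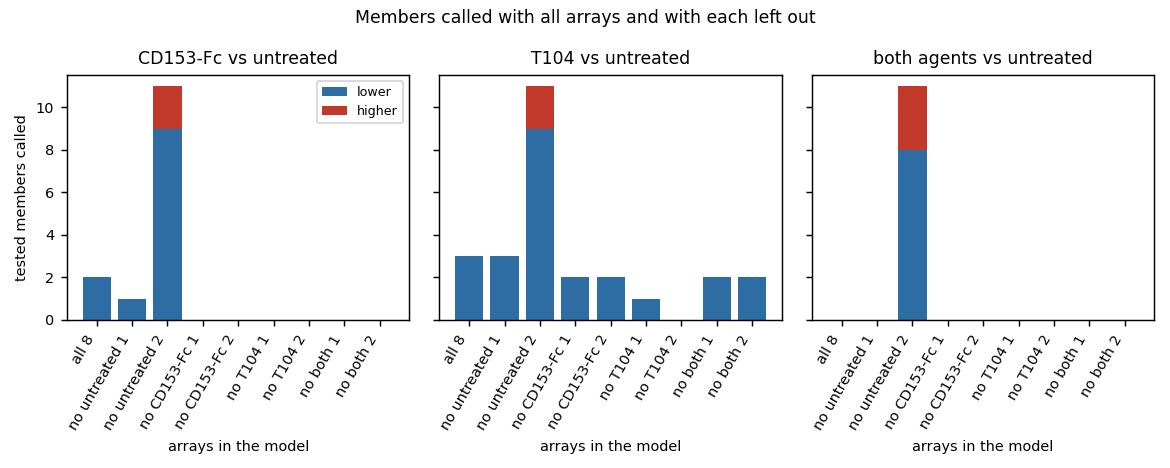
Number of tested genes called (y axis; blue lower, red higher) with all 8 arrays and with each array left out in turn (x axis), with 1 panel per treatment against untreated cells. The count reaches 11 in each panel without untreated replicate 2 and is at most 3 in the other bars.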

How the data were processed

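RNA of 8 cultures, 2 per group, was measured on single-colour arrays. Groups came from the sample labels, whose duplicates the submitters call biological. The authors deposited probe intensities on a linear scale without normalization, each with a detection p-value that ranks a probe against the array's negative controls. The authors also deposited processed intensities, linear and not centred, with column medians from 119.685 to 119.717, made by a normalization that the sources used here do not name. BeadStudio is the software in the series design, and GenomeStudio that in the submitters' processing notes.

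Intensities were processed with limma 3.58.1 in R 4.3.3 by neqc, which corrects background through the detection p-values, adds an offset of 16, normalizes by quantiles and takes log2. Probes detected on at least 2 of 8 arrays were kept (12543 of 48797). Symbols came from the platform annotation. Unnamed probes stood for themselves. A limma model with group means over all 8 arrays, eBayes with an intensity trend and Benjamini-Hochberg adjustment over 10183 features gave 9 contrasts. Intervals are at 95%. The procedure was tested on simulated data in which a feature had the same spread on all arrays. The untreated pair differed more than the others, so that test does not cover the comparisons with untreated cells. The number of arrays limits the precision.

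The members, the 6 further gene lists and the tests were chosen with earlier results of these data known. Per-array values are given for MYC, each called gene and the largest change in each role group. From the lists, up to 4 called genes per comparison are named. The test of each probe on its own was added after the data were seen. Same-numbered replicates did not deviate together (r from -0.0987 to 0.0072 between groups), so no shared effect of the number was seen. Whether same-numbered cultures were handled together is not in the labels, and this check cannot tell. Slide as a block was not run, since the files name no slide.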

Additional observations from a re-analysis of the deposited data

Results flagged for a closer look

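The response of DDX51 to T104 differed with the presence of CD153-Fc by the interaction test. Log2 intensity was 13.06 and 12.98 in untreated cells and 12.43 and 12.11 with T104, against 12.40 and 12.30 with CD153-Fc and 12.57 and 12.63 with both agents. The difference between the responses was 1.00 ± 0.20 log2 (adjusted p = 0.0314 by limma). It was called in 5 of 9 other settings, with adjusted p from 0.0149 to 0.205. The dimmer DDX51 probe had 0.19 ± 0.25 (adjusted p = 0.808) in its own test. Groups of 2 arrays are too small for a test of outlying arrays.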

How the results depend on the processing

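Counts of the 36 genes called changed with the processing. The percentage in brackets is the share of all features called under the same setting. Against untreated cells, CD153-Fc had 2 calls (1.37%). It had 1 with no background correction (1.37%), with median scaling (0.884%), with the authors' processed intensities (1.37%) or with the mean of a gene's probes (1.28%). It had 0 with no filter on dim probes (0.233%), without the intensity trend (1.21%), with array weights (1.05%), with the replicate number as a block (0.864%) or with only the groups compared (0.324%). T104 had 3 (10.5%), with 5 by median scaling (12%), 1 with no filter (2.01%), 0 with only the groups compared (3.92%) and 7 with each probe on its own (9.86% of probes). Both agents had 0 (6.67%), with 9 by median scaling (16.1%) and 1 without the trend (6.21%). T104 against CD153-Fc had 1 (0.609%), and 0 by median scaling (0.511%), with no filter (0.129%) or with the block (0.452%). Both against CD153-Fc had 0 (0.187%), and 1 with array weights (2.01%) or only the groups compared (1.94%). The interaction had 1 (1.34%), and 0 by median scaling (0.727%), with no filter (0.21%), with the mean of probes (1.18%) or without the trend (0.884%). The average effect of T104 had 1 (7.69%), with 2 by median scaling (10.2%), 0 with no filter (1.48%), 3 with the mean of probes (8.14%) and 2 with each probe (7.21%). The calls of each probe include those of the dimmer UBTF and POLR1B probes, kept only through arrays without T104. With 1 array left out the counts ran from 0 to 11 for each treatment against untreated cells (up to 25.8% for CD153-Fc, 33.6% for T104 and 32.8% for the combination). They ran from 0 to 1 for T104 or both against CD153-Fc, 0 to 0 for both against T104, 0 to 7 for the interaction (up to 16.9%), 0 to 11 for the average effect of T104 (up to 29%) and 0 to 4 for that of CD153-Fc (up to 13.6%). The block on replicate number left T104 against untreated cells at 2 calls. Median scaling moved the median of all features to -0.19, -0.20 and -0.31 in CD153-Fc, T104 and both against untreated cells, and that of the 36 genes to -0.28, -0.22 and -0.35, and the cause was not tested. None of these settings reversed a called gene of the 36. Of 10 settings, DDX51 was called with T104 in 8, RRP1B in 8, SRM in 5 and MYC, by its brighter probe or the mean of probes, in 2. With 2 arrays per group, signal near background limits POLR1B, detected on 5 arrays, and TRMT6 under CD153-Fc. It also limits MXD1 and PAOX in untreated cells and TFAP4 with T104. POLR1A, UTP20 and NPM1 had no detected probe, and which NPM1 transcript its probe targets was not checked.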

Other observations

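Changes of the tested genes were set beside the E-box in their promoters, as a description with no test. With CD153-Fc the 15 genes with CACGTG had a median change of -0.22 log2 (from -0.96 to 0.64) and the 14 without it -0.05 (from -0.66 to 0.32). With T104 the medians were -0.03 (from -0.54 to 0.63) and -0.10 (from -0.75 to 0.40), and with both agents -0.11 and -0.03. The group with the lower median was thus the one with the E-box in 2 of the 3 comparisons, which share the untreated arrays.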
